A study of Mus musculus with 54 samples.

Results

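The mammary gland of the mouse was compared between pregnancy day 3 and pregnancy day 1. For a part of the genes pregnancy day 2 is given as the level in between. The comparison rests on 6 of the 54 arrays of a developmental series, 3 mice at day 1 and 3 at day 3, and 3 further arrays give day 2. All probe sets other than controls were eligible, and a probe set was kept where its signal passed 22.8, the 40th percentile of the table, in all 3 arrays of at least 1 of the 18 time points. The arrays were chosen by their labels, not by any measured value. Each array holds total RNA of 1 inguinal gland of 1 mouse, taken after the lymph node had been removed. The females were mated at 12 weeks of age, were kept under standard conditions and received no treatment. The day of the vaginal plug counted as day 0.5, and how days 1, 2 and 3 of the labels sit on that count, and which strain was used, are not given in the sources used here. Letters A, B and C name the 3 mice of a day. Bulk RNA of a whole gland holds epithelium, fat, connective tissue, vessels and blood cells together, so that a change in the number of cells of a type and a change in RNA per cell cannot be told apart.

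In early pregnancy the ductal tree of the virgin gland begins to form side branches and alveolar buds. Progesterone acts on the hormone-sensing luminal cells, which carry its receptor, and these cells secrete paracrine signals to their neighbours. The best known are RANK ligand, encoded by Tnfsf11, WNT4, and, from other luminal cells, R-spondin 1, encoded by Rspo1, which strengthens Wnt signals. Neighbouring luminal and basal cells then enter the cell cycle. Cells that divide make the proteins of DNA replication in S phase and those of the spindle and the mitotic cyclins in G2 and M phase. The epithelium grows into a pad of white fat, whose adipocytes store, make and burn fatty acids.

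The deposited values are MAS5 signals on a linear scale, in arbitrary units. Signals under 9.4 were set to 9.4, which is called the floor here, means are geometric means of 3 mice, and differences are log2 differences ± standard error from a limma fit of all 54 arrays. A gene was called where the Benjamini-Hochberg adjusted p over 7311 features was under 0.05. Signals of different genes come from different probes and are not compared with each other.

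The tissue gave the markers of its label. Krt8 and Krt18, keratins of luminal epithelium, had mean signals of 965.6 and 1139 at day 1 and 811.9 and 649.8 at day 3. Epcam, an adhesion protein of epithelium, stood at 126.4 and 110.4, Adipoq, the adipocyte hormone adiponectin, at 5187 and 3382, and Col1a1, a chain of type I collagen, at 3099 and 4835. None of these 5 was called.

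The arrays of day 1 differed among themselves in ways the label does not explain. The 3′ to 5′ signal ratio of the Gapdh control probe sets, which rises when RNA is degraded or copied incompletely, was 23.1 and 20.1 for mice A and B of day 1 and 2.43 for mouse C. It was 1.88, 9.83 and 10.0 at day 2 and 1.39, 1.47 and 2.23 at day 3, while the 48 arrays outside days 1 and 2 ran from 0.847 to 4.93. The beta-actin ratio did not separate the days in this way: it was 3.73, 2.54 and 4.15 at day 1 and 2.25, 2.39 and 2.71 at day 3. Array medians were 34.3 to 36.4 at day 1 and 40.6 to 44.6 at day 3. Arrays correlated at r of 0.924 to 0.952 within days 1 and 3, and at 0.896 to 0.928 between them, across genes of single arrays. Mouse C of day 1 was also the day 1 array with the highest T cell marker Cd3e (109.8 against 9.4 and 15.6), the highest B cell marker Cd79b (213.9 against 28.8 and 39.0) and the highest mean log2 signal of the mitosis list (5.86 against 5.08 and 5.04). Counts of most gene groups below are therefore given also with mouse C as the sole array of day 1, where its spread is assumed to be that of the other groups. The part of RNA quality in the results was not tested.

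**Figure D1:**
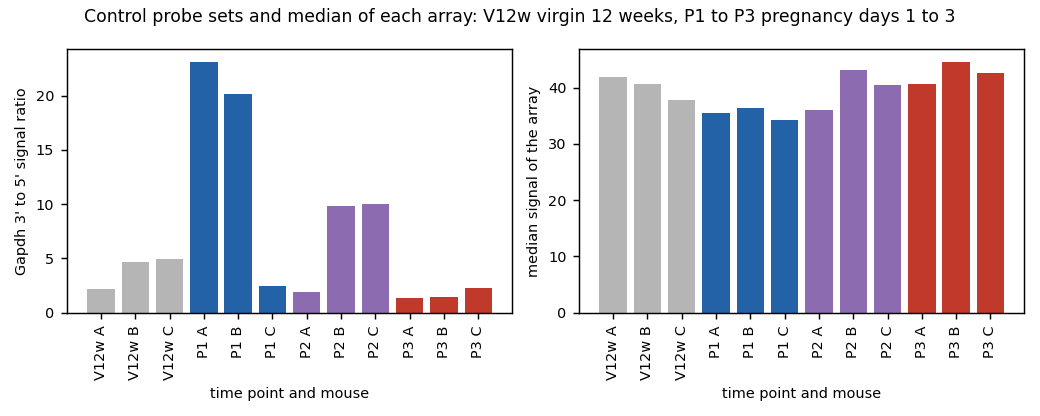
The left panel plots the Gapdh 3′ to 5′ signal ratio and the right panel the median signal of each array, for the 3 mice of virgin week 12 and of pregnancy days 1, 2 and 3; each bar is 1 array. The ratio is 23.1 and 20.1 in mice A and B of day 1 and 2.43 in mouse C, and the medians of day 1 (34.3 to 36.4) lie below those of day 3 (40.6 to 44.6).

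Of 7311 features, 445 were higher (6.09%) and 294 lower (4.02%) at day 3, 739 in all (10.1%). The median difference over all features was 0.09 on the log2 scale. Scaling each array to the same median moved it to -0.16 and turned the split into 208 higher (2.85%) and 720 lower (9.85%), and quantile normalization gave 327 higher (4.47%) and 325 lower (4.45%). The balance between rises and falls is thus set by the scaling, and the changes below are read against this shift of all genes. Every share of a gene list called higher or lower is to be read beside the 6.09% and 4.02% of all features. With mouse C alone for day 1, 209 features were higher (2.86%) and 92 lower (1.26%). With the Gapdh ratio as a covariate the counts were 86 (1.18%) and 78 (1.07%), and with the beta-actin ratio 294 (4.02%) and 230 (3.15%). The arrays of the 2 days did not overlap in 2224 features (30.4%), with day 3 above in 1397 (19.1%) and below in 827 (11.3%). Leaving out 1 mouse lowered the total of 739 most without mouse B of day 3 (197 called), mouse C of day 3 (288) and mouse A of day 1 (318).

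**Figure D2:**
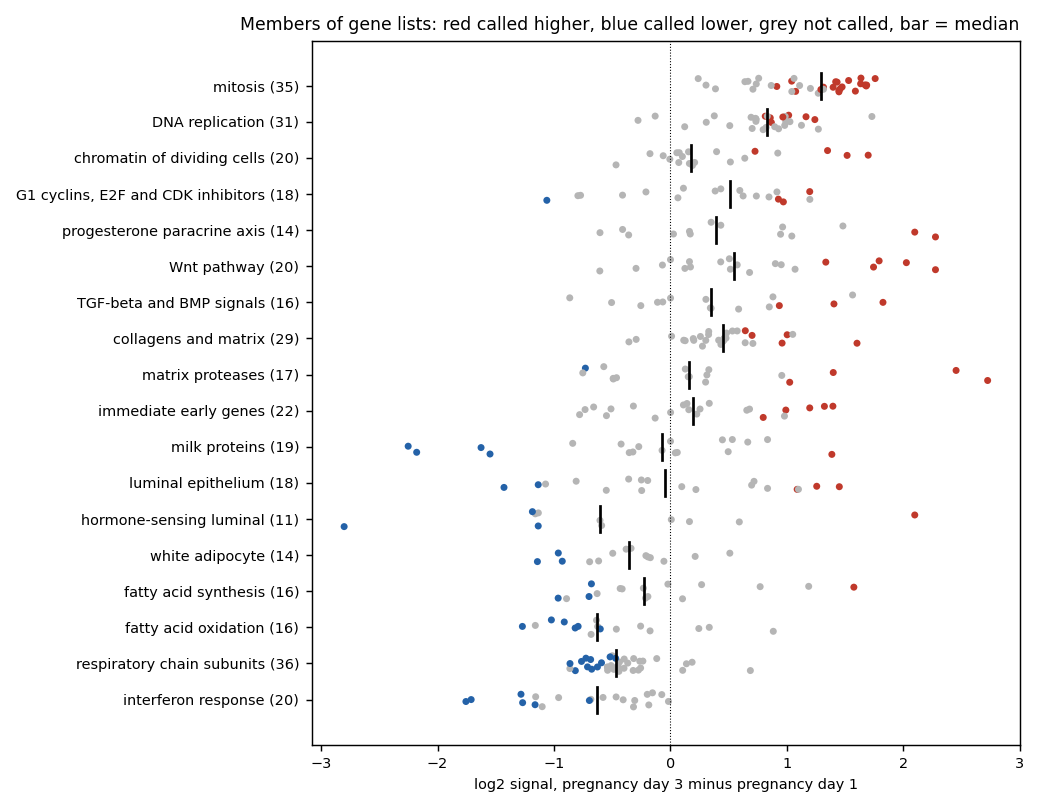
Each point is the log2 difference, day 3 minus day 1, of 1 measured member of a gene list, with the number of measured members in brackets; red points were called higher, blue called lower, grey not called, and the black bar is the list's median. The medians run from 1.29 for mitosis to -0.63 for fatty acid oxidation and for the interferon response, beside 0.09 for all features.

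Genes of mitosis were the group with the most rises. Of 35 measured members, 20 were higher at day 3, 0 were lower, and all 35 differences were above 0, with a median of 1.29 (6.09% of all features were called higher, with a median of 0.09). When mouse C stood alone for day 1 the median was 0.69 and 0 of the 35 were called, in a fit with larger standard errors. Leaving out 1 mouse gave 6 to 23 called members, with 6 without mouse A of day 1, 8 without mouse B of day 3 and 23 without mouse C of day 1. Under median scaling 12 members were higher and the median was 1.05. With the Gapdh ratio as a covariate 2 were called and the median was also 1.05.

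Stmn1 encodes stathmin, which takes microtubules apart as the spindle forms. Its signals were 207.2, 144.2 and 408.0 in mice A, B and C of day 1, 620.9, 492.9 and 741.7 at day 2, and 770.9, 696.0 and 460.7 at day 3. All day 3 arrays lay above all day 1 arrays, although the highest of day 1, mouse C, came near the lowest of day 3 (log2 difference 1.45 ± 0.32, adjusted p = 0.0036, limma). Ccnb2, a B-type cyclin that drives entry into mitosis with CDK1, had 144.1, 103.9 and 278.1 at day 1, 398.4, 193.1 and 406.0 at day 2, and 490.3, 480.1 and 379.3 at day 3. The groups did not overlap, and mouse C was again the highest of day 1 (1.47 ± 0.32, adjusted p = 0.0036). Ccna2, the A-type cyclin of S phase and G2, stood at 73.4, 32.8 and 82.7 at day 1, at 143.4, 124.4 and 166.5 at day 2 and at 179.4, 166.3 and 138.5 at day 3. It rose by 1.46 ± 0.30 (adjusted p = 0.0022), with no overlap.

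Cdc20 activates the complex that destroys the mitotic cyclins. Its signals were 109.1, 54.3 and 172.1 at day 1, 235.4, 156.3 and 308.4 at day 2, and 312.4, 340.5 and 230.9 at day 3. The lowest array of day 3 was 230.9 and the highest of day 1 was 172.1 (1.53 ± 0.30, adjusted p = 0.0014). Nek2, a kinase that parts the centrosomes, was 20.0, 18.4 and 28.2 at day 1, 41.2, 56.2 and 64.4 at day 2, and 62.7, 87.7 and 56.7 at day 3 (1.64 ± 0.34, adjusted p = 0.0027). These 5 genes kept their calls without any 1 of the 6 mice, with adjusted p of at most 0.04.

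The other 15 called members lost their calls when at least 1 mouse was left out. Top2a, the topoisomerase that untangles replicated chromosomes, was 9.4, 20.6 and 37.0 at day 1, 57.0, 52.9 and 82.3 at day 2 and 79.5, 50.8 and 52.9 at day 3 (1.63 ± 0.47, adjusted p = 0.022). It was not called without mouse A of day 1 or without any 1 mouse of day 3, with adjusted p of up to 0.18. Mki67, the proliferation antigen Ki-67, had 31.7, 16.0 and 93.1 at day 1 and 123.6, 136.4 and 92.4 at day 3, so that mouse C of day 1 and mouse C of day 3 overlapped by a narrow margin (1.68 ± 0.44, adjusted p = 0.013). Its call was lost without mouse A or B of day 1 or mouse B of day 3, with adjusted p of up to 0.13. Cdk1, the mitotic kinase, went from a mean of 61.7 to 196.6 (1.67 ± 0.56, adjusted p = 0.049) and was called in the full set and without mouse C of day 1 only. Kif22, a chromosome-bound kinesin, went from 67.2 to 183.3 (1.45 ± 0.35, adjusted p = 0.0071) and lost its call without mouse A or mouse B of day 1, at adjusted p of up to 0.061. The other called members were Aurkb, Birc5, Incenp, Plk1, Prc1, Racgap1, Ect2, Kif2c, Kif4, Kif20a and Cdc25c, with differences of 0.91 to 1.76. Of these, Birc5 and Aurkb had overlapping arrays. Among the brighter members not called were Bub3, a checkpoint protein (284.7 and 335.8), Cks1b, a partner of the cyclin-dependent kinases (203.9 and 251.9) and Foxm1, a transcription factor of mitotic genes (92.0 and 120.3).

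**Figure D3:**
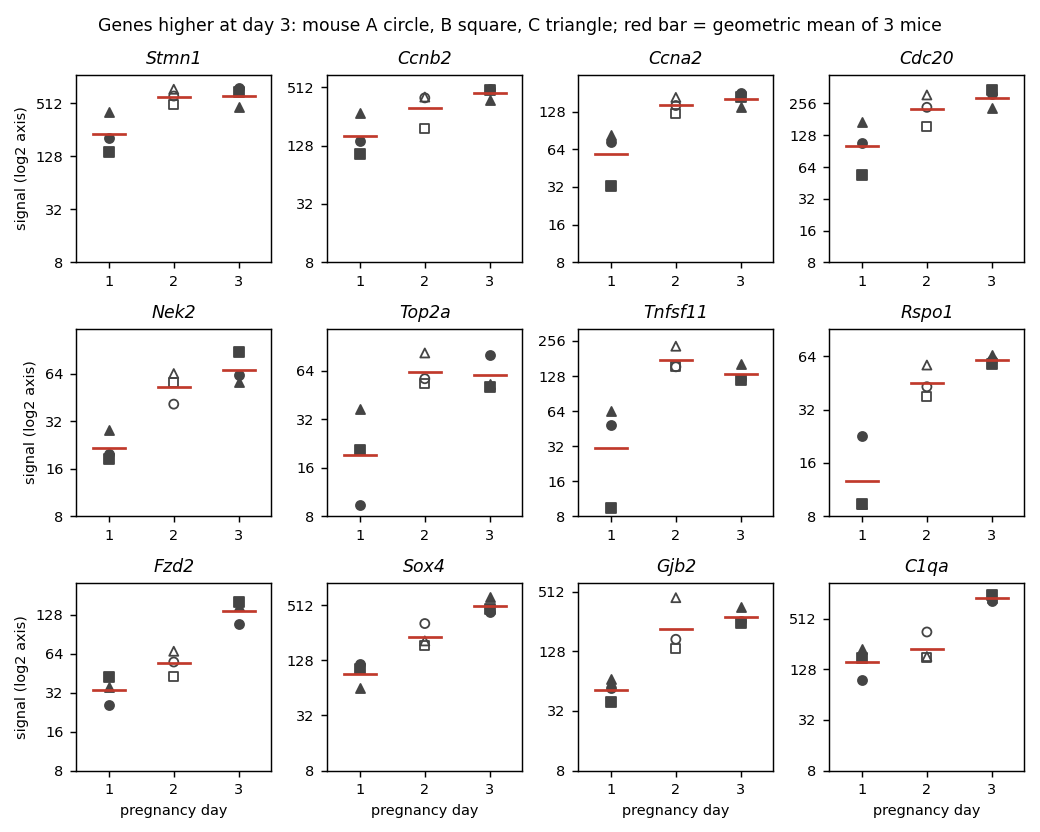
Signals of 12 genes called higher at day 3, on a log2 axis, by pregnancy day; circles, squares and triangles are mice A, B and C, open symbols mark day 2, and the red bar is the geometric mean of 3 mice. In the mitotic genes mouse C is the highest array of day 1, and the day 2 means of Stmn1 (610.0) and Top2a (62.8) lie near their day 3 means (627.6 and 59.8), while Sox4, Fzd2 and C1qa are higher at day 3 than at day 2 in every array.

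Promoters of mitotic genes are known for a pair of elements, the cell cycle genes homology region (CHR) and the CCAAT box. They are shown here because 20 members of this group moved together. RefSeq windows of 300 bases, 250 before to 50 after a transcription start (GRCm38.p6), were found for 14 of the 20 called mitosis genes and searched on both strands for TTTGAA (CHR) and CCAAT. The CHR letters were found in 12 of the 14 genes (85.7%), against 14.6% of the 5158 tested genes with a window and 20.2% of all 27025 genes with one. CCAAT was found in 12 of 14 (85.7%), against 42.5% of tested genes, and both elements in 1 window in 11 of 14 (78.6%), against 6.07% of tested genes. The E2F letters TTTCGCGC were found in 1 of the 14 (7.14%), which is Cdk1, against 0.737% of tested genes. Of 7 called genes of DNA replication, 1 held TTTGAA (14.3%), 5 held CCAAT (71.4%) and 2 held the E2F letters (28.6%). A match of letters is a description of the window and not a mapped site. The mitosis list is made of genes of the kind known for these elements. No share was taken for its members that were not called, so a tie of the elements to the rise at day 3 was not tested. The 250 bases before the start are printed 5′ to 3′ on the gene's strand for 4 mitotic genes with TTTGAA at most 30 bases from the start, and for Mcm5, a helicase subunit of DNA replication, as an example of that group; the genes were picked after their values were seen. Capitals mark the letters of the CHR, the CCAAT box and the E2F site on either strand, and the matches in the printed bases do not overlap.

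Cdc20, chr4:118437344-118437593, minus strand: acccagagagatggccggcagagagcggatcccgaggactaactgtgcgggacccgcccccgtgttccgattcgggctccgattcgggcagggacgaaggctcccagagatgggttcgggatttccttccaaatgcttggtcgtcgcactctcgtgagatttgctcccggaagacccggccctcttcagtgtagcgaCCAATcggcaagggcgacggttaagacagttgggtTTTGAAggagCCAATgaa

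Cdk1, chr10:69352913-69353162, minus strand: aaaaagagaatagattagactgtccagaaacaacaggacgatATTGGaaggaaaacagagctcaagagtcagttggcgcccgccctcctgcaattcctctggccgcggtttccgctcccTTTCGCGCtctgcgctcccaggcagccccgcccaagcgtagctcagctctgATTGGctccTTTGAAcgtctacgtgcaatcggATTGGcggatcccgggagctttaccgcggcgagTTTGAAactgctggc

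Kif22, chr7:127042421-127042670, minus strand: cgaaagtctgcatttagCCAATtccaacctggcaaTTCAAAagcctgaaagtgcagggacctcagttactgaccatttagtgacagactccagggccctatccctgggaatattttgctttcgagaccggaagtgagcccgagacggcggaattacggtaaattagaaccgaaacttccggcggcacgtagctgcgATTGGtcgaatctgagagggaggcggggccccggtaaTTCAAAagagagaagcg

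Top2a, chr11:99024190-99024439, minus strand: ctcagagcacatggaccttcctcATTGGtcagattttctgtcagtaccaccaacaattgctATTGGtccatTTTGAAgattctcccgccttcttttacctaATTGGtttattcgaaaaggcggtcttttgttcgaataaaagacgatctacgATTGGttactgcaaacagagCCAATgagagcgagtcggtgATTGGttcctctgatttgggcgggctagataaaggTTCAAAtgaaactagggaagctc

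Mcm5, chr8:75109259-75109508, plus strand: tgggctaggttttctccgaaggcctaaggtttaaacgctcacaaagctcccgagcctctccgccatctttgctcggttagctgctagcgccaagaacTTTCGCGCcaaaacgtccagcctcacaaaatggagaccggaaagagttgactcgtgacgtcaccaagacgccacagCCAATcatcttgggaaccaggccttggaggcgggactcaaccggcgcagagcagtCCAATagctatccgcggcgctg

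In Cdc20 the CHR letters begin at -18 from the start site, in Cdk1 at -15, in Kif22 at -17 and in Top2a at -23. Each of the 4 windows also holds 2 or more CCAAT letters, with 6 in Top2a. The Cdk1 window holds 1 E2F match. That of Mcm5 holds 0 CHR matches, 1 E2F match and 3 CCAAT matches, of which 1 lies beyond the printed bases.

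Of 31 measured genes of DNA replication 7 were higher and 0 lower, with a median difference of 0.83, and 29 of the 31 differences were above 0. On mouse C alone for day 1, 1 was called and the median was 0.51, and median scaling left 1 call and a median of 0.57. Leaving out 1 mouse gave 1 call without mouse A of day 1, mouse A of day 3 or mouse B of day 3, 2 without mouse B of day 1 or mouse C of day 3, and 7 without mouse C of day 1. With the Gapdh ratio as a covariate 1 was called, and the median was 0.85. Chaf1b, a subunit of the chromatin assembly factor that loads histones onto new DNA, was 26.6, 42.9 and 23.3 at day 1, 45.2, 57.4 and 91.3 at day 2, and 80.1, 63.6 and 68.8 at day 3. The groups were separate and the call held without any 1 mouse and with mouse C alone (1.24 ± 0.30, adjusted p = 0.0071). Mcm5 went from 105.2 to 235.9 (1.16 ± 0.38, adjusted p = 0.045), with a day 2 mean of 276.9, and Dnmt1, the methyltransferase that copies methylation to new strands, from 169.6 to 298.1 (0.81 ± 0.27, adjusted p = 0.044). Mcm5 lost its call without any 1 mouse, at adjusted p of up to 0.21, and Dnmt1 without any but mouse C of day 1, at up to 0.17. The other called members were Mcm3, Pola1, Cdt1 and Brca1, at 0.86 to 1.01. Pcna, the sliding clamp of the DNA polymerases, did not follow this pattern: it had 198.5, 190.6 and 374.8 at day 1, 479.5, 369.6 and 411.1 at day 2 and 303.2, 223.8 and 269.3 at day 3 (0.12 ± 0.32, adjusted p = 0.85). Its day 2 arrays lay above those of day 3, and mouse C of day 1 lay among those of day 2 and day 3.

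Chromatin proteins of dividing cells were called in 4 of 20 members, all higher, with a median of 0.17 that turned to -0.09 under median scaling and to -0.08 with mouse C alone, where 0 were called. Hmgb2, a DNA-bending protein abundant in dividing cells, was 14.9, 14.5 and 33.9 at day 1, 69.7, 47.8 and 68.3 at day 2 and 95.9, 53.0 and 49.2 at day 3. The groups did not overlap and no left-out mouse ended the call (1.70 ± 0.37, adjusted p = 0.0036). Hmgb3, Lmnb1 and Cbx1 were the others, at 0.73 to 1.52. With the Gapdh ratio as a covariate 0 of the 20 were called, and the median was 0.26. Of 18 genes of the G1 phase, 3 were higher and 1 lower, and 1 and 2 against mouse C alone. Cdk4, a kinase that acts with the D cyclins in G1, was 425.6, 431.9 and 354.5 at day 1, 442.9, 676.1 and 808.1 at day 2, and 819.2, 784.8 and 696.7 at day 3 (0.93 ± 0.21, adjusted p = 0.0054). Cdkn2c, which encodes p18, an inhibitor of CDK4 and CDK6, moved the other way, with 495.1, 576.6 and 685.9 at day 1, 370.9, 415.5 and 337.7 at day 2, and 341.4, 260.1 and 242.2 at day 3 (-1.06 ± 0.23, adjusted p = 0.0032). In both the groups were separate, and both kept their calls without any 1 mouse and with mouse C alone. Ccnd1, cyclin D1, stood at 181.6 and 245.0 with no call (adjusted p = 0.30). The Gapdh ratio as a covariate left 1 of the G1 genes higher and 1 lower. Of 17 genes of nucleotide and one-carbon synthesis 3 were higher (Shmt1, Shmt2 and Ctps, 0.62 to 1.09), and each lost its call without at least 2 of the 6 mice in turn; against mouse C alone 1 was called.

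Of the 14 measured genes of the progesterone paracrine axis, Tnfsf11 and Rspo1 rose, 0 fell, and the median was 0.39. Tnfsf11 gave 48.7, 9.4 and 64.6 at day 1, 153.8, 155.6 and 231.0 at day 2 and 121.6, 117.9 and 161.9 at day 3. Every array of days 2 and 3 lay above every array of day 1, and mouse B of day 1 was at the floor (2.10 ± 0.44, adjusted p = 0.0026). Rspo1 gave 22.6, 9.4 and 9.4 at day 1, 43.0, 38.0 and 57.0 at day 2, and 60.7, 57.8 and 64.6 at day 3. Its groups stood apart by more than their ranges, with 2 of the 3 day 1 arrays at the floor (2.28 ± 0.30, adjusted p = 5.7e-06). Both were called without any 1 of the 6 mice and with the Gapdh ratio as a covariate, but with mouse C alone Rspo1 was called (adjusted p = 5.8e-05) and Tnfsf11 was not (1.03, adjusted p = 0.23). The list then held 1 higher and 1 lower member, the latter Cited1, a transcriptional coactivator (-1.48, adjusted p = 0.04). Wnt4, the Wnt ligand of the same cells, averaged 72.8 at day 1, 123.3 at day 2 and 81.5 at day 3, with no call (0.16 ± 0.45, adjusted p = 0.86). Stat5a, the transcription factor of prolactin signalling, stood at 498.3 and 560.5, and Elf5, a factor of the secretory lineage, at 121.6 and 94.8, with no call. Esr1, the estrogen receptor alpha, was at or near the floor in 2 of the 3 arrays of day 1 and of day 3 and was not called. Pgr, Areg, Calca and Prlr were not analysed here.

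In the Wnt pathway list, which also holds Rspo1, 3 frizzled receptors and 1 ligand rose. Counting Rspo1, 5 of 20 members were higher and 0 lower, with a median of 0.54, and the count was 6 and the median 0.83 with mouse C alone. Median scaling gave 4 higher, 1 lower and a median of 0.28. The Gapdh ratio as a covariate gave 2 higher, 0 lower and a median of 0.61. Fzd2, a frizzled receptor, was 25.5, 42.1 and 35.1 at day 1, 55.1, 42.9 and 66.7 at day 2, and 107.5, 159.3 and 148.7 at day 3 (2.03 ± 0.46, adjusted p = 0.0049). The day 3 arrays lay above all others, and the day 2 arrays just above those of day 1. Fzd7, a frizzled receptor of basal mammary cells, was 16.3, 17.6 and 9.4 at day 1, 28.0, 38.0 and 24.7 at day 2 and 53.8, 50.5 and 37.3 at day 3 (1.74 ± 0.37, adjusted p = 0.0032). Fzd1 was 12.2, 13.9 and 9.4, then 9.4, 21.7 and 19.2, then 36.8, 41.7 and 43.1 (1.79 ± 0.43, adjusted p = 0.0075). The 3 frizzled genes did not overlap between days 1 and 3 and kept their calls without any 1 mouse. Other receptors of the list were not called: Fzd4 stood at 199.4 and 217.3, and the co-receptors Lrp5 and Lrp6 at 9.4 and 15.1 and at 324.2 and 212.9 (adjusted p of 0.76, 0.50 and 0.14). Wnt5b, a Wnt ligand, went from 29.6 to 74.7 (1.33 ± 0.42, adjusted p = 0.035), a call lost without any 1 mouse other than mouse A of day 1 (adjusted p of up to 0.12). Axin2, a target of Wnt signals, averaged 17.0, 18.0 and 31.7 on the 3 days, with no call (0.90 ± 0.47, adjusted p = 0.22).

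Egfr, the receptor of amphiregulin, which acts in the stroma of the growing gland, was 35.4, 26.1 and 32.5 at day 1, 42.3, 65.3 and 69.1 at day 2, and 97.5, 101.0 and 106.1 at day 3 (1.71 ± 0.42, adjusted p = 0.0082). The 3 days did not overlap. It was the called member among 6 of the EGF family list, and it was not called against mouse C alone (1.64, adjusted p = 0.11) or with the Gapdh ratio as a covariate (adjusted p = 0.20).

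Among the largest rises were genes of transcription, junctions and complement. The largest rises and falls were picked among called genes whose arrays of days 1 and 3 do not overlap, so their separation adds no support. Sox4, a transcription factor of progenitor cells, was 117.8, 102.7 and 63.8 at day 1, 322.3, 185.1 and 208.3 at day 2, and 432.6, 466.1 and 635.2 at day 3. It climbed without overlap from day to day, 5.50-fold in all (2.46 ± 0.34, adjusted p = 1.8e-05), and its other probe set rose by 1.81. Gjb2, connexin 26, which couples secretory cells through gap junctions, was 54.7, 39.3 and 68.0 at day 1, 169.7, 136.7 and 447.1 at day 2, and 257.5, 246.5 and 359.3 at day 3 (2.43 ± 0.44, adjusted p = 0.00062). Day 1 was separate from both later days, and mouse C of day 2 was the highest array of the 9.

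C1qa, a chain of the complement protein C1q made by macrophages, was 95.7, 175.7 and 221.5 at day 1, 354.9, 177.2 and 181.3 at day 2, and 831.1, 964.9 and 905.6 at day 3 (2.54 ± 0.42, adjusted p = 0.0003). Days 1 and 2 overlapped, and all of day 3 lay far above both. It was the called member among 14 macrophage markers, whose median was -0.08. That median was 0.65 against mouse C alone, where C1qb and C1qc, the other chains of C1q, were called as well (1.48 and 1.80, adjusted p of 0.0067 and 0.018), and 0.46 with the Gapdh ratio as a covariate. In the fit of all mice C1qb and C1qc stood at 0.08 and 0.57 (adjusted p of 0.91 and 0.33). With the Gapdh ratio as a covariate C1qa was not called (1.30, adjusted p = 0.065). The macrophage list had mean log2 signals of 7.25 to 8.11 on the day 1 arrays and 7.69 to 8.03 on those of day 3.

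Timp2, an inhibitor of matrix metalloproteinases, was 26.4, 11.5 and 41.9 at day 1, 50.5, 26.2 and 28.1 at day 2, and 101.2, 180.1 and 201.5 at day 3 (2.72 ± 0.55, adjusted p = 0.0021). Zfp358, a zinc finger gene, was at the floor on all 3 arrays of day 1, 25.9, 18.2 and 14.9 at day 2 and 55.8, 59.0 and 76.1 at day 3, at least 6.71-fold higher (adjusted p = 0.0036). Smarcc1, a core subunit of SWI/SNF chromatin remodelling complexes, was 22.1, 9.4 and 23.5, then 95.1, 37.9 and 35.5, then 62.0, 94.0 and 118.8 (2.38 ± 0.46, adjusted p = 0.0013). In each of these genes days 1 and 3 were separate by the rule that picked them, and the calls held without any 1 mouse. Once the Gapdh ratio entered as a covariate none of the 3 was called (0.87, 2.05 and 1.35, adjusted p of 0.31, 0.10 and 0.12). Xist, the RNA of the inactive X chromosome, went from 12.6, close to the floor of 9.4, to 59.1 (2.23 ± 0.43, adjusted p = 0.0014). Crabp1, a retinoic acid binding protein, went from 26.2 to 115.5 (2.14 ± 0.45, adjusted p = 0.0027).

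The other large rises each lost their call when at least 1 mouse was left out. Mmp9, a gelatinase, was 31.7, 9.4 and 9.4 at day 1, 11.0, 9.8 and 41.2 at day 2, and 87.4, 147.1 and 35.8 at day 3, with the lowest array of day 3 just above the highest of day 1 (2.45 ± 0.54, adjusted p = 0.0036). Its adjusted p was 0.052 without mouse B of day 3. Lgals7, galectin-7 of stratified epithelium (6.37-fold), lost its call without any 1 mouse but mouse C of day 1, at adjusted p of up to 0.14. Mrc2, a collagen uptake receptor (5.05-fold), and Gpaa1, of the enzyme that attaches GPI anchors (4.80-fold), lost theirs without mouse A or B of day 1 or mouse B of day 3, at up to 0.062 and 0.11. With the Gapdh ratio as a covariate Mrc2 and Gpaa1 were not called (0.94 and 0.68, adjusted p of 0.46 and 0.59, limma). Against mouse C alone their log2 differences were 1.36 and 0.71, beside 2.34 and 2.26 in the fit of all mice. Mxd3, a partner of MAX (4.42-fold), lost its call without mouse A or C of day 1 or mouse B of day 3, at up to 0.12, and Slc48a1, a heme transporter (4.61-fold), without mouse A of day 1, at 0.067.

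Of 29 collagens and matrix genes 5 were higher and 0 lower, with a median of 0.45, and 27 of the 29 differences were above 0. Mouse C alone gave 3 calls, and median scaling left 1 call and a median of 0.18. Without 1 mouse the count was 0 (mouse C of day 3) to 4 (mouse B of day 1), with 1 call without mouse C of day 1 or mouse B of day 3. The Gapdh ratio as a covariate gave 3 calls and a median of 0.50. Eln, elastin, was 820.9, 854.8 and 276.7 at day 1, 630.2, 777.0 and 588.3 at day 2, and 1158.7, 1942.5 and 2410.7 at day 3 (1.60 ± 0.38, adjusted p = 0.0065). Day 3 was above all other arrays, and mouse C of day 1 was the lowest of the 9; without it or without mouse C of day 3 the gene was not called (adjusted p of up to 0.08). Col14a1, Tnc, Col5a1 and Fn1 were the other called members, at 0.64 to 1.00, and Col14a1 and Tnc had overlapping arrays. For the 5 called matrix genes the day 2 mean had covered a median of 21.8% of the log2 difference between days 1 and 3, against 81.5% for the 20 mitosis genes and 49.6% for all 445 features that rose. These shares describe means that share the day 1 and day 3 arrays, and their difference was not tested. In the direct comparisons of day 2 with day 1 and of day 3 with day 2, 0 of the 29 were called, with medians of 0.15 and 0.25.

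Of 17 matrix proteases and inhibitors 4 were higher (Mmp9, Timp2, Mmp14 and Ctsk) and 1 lower (Ctsb), and 3 were higher and 0 lower against mouse C alone. Mmp14, the membrane-bound collagenase, was 467.4, 412.2 and 199.9 at day 1, 539.5, 535.4 and 622.9 at day 2, and 763.5, 929.4 and 992.6 at day 3 (1.40 ± 0.36, adjusted p = 0.012). The 3 days were separate, and the call was lost without mouse C of day 1 or mouse B or C of day 3, at adjusted p of up to 0.097. Ctsb, the lysosomal protease cathepsin B, fell from 3088.7, 3239.6 and 2662.1 through 2206.8, 2221.2 and 2087.7 to 1957.6, 1983.7 and 1500.2 (-0.73 ± 0.13, adjusted p = 0.00068), also with separate days, and its other probe sets fell by 0.66 and 0.80. The Gapdh ratio as a covariate left 1 member of this list higher and 1 lower. Of 16 TGF-beta and BMP genes 3 were higher: Bmp7 (15.1 to 53.6), Tgfb2 (10.5 to 27.8) and Tgfb3 (160.1 to 306.1), with differences of 0.93 to 1.82, and 2 were higher against mouse C alone. Each lost its call without at least 2 of the mice in turn, mouse B of day 3 among them, at adjusted p of up to 0.16. With the Gapdh ratio as a covariate 0 of the 16 were called.

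Immediate early genes, the transcription factors and stress genes that respond within minutes to a stimulus, were higher in 5 of 22 members and lower in 0. Their median of 0.19 turned to -0.06 under median scaling, where 3 were higher, and 2 were higher with mouse C alone. Gadd45b, a stress response gene, was 29.9, 23.8 and 41.5 at day 1, 59.0, 51.4 and 60.4 at day 2, and 89.4, 86.8 and 69.2 at day 3, with no overlap between the 3 days (1.40 ± 0.34, adjusted p = 0.0085). Jun went from 68.2 to 135.5 (0.99 ± 0.26, adjusted p = 0.012), Junb from 53.9 to 134.8 (1.32 ± 0.37, adjusted p = 0.019) and Myc from 51.5 to 118.0 (1.20 ± 0.34, adjusted p = 0.021). Jun lost its call without mouse C of day 1 or mouse B of day 3 (adjusted p of up to 0.08), Junb without mouse A of day 1 or mouse C of day 3 (0.13), and Myc without mouse B of day 1 or mouse B or C of day 3 (0.11). With the Gapdh ratio as a covariate 1 of the 22 members was higher, and the median was 0.38.

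The largest fall was that of Tph1, tryptophan hydroxylase 1, which makes serotonin outside the brain. Its signals were 339.2, 477.0 and 218.4 at day 1, 231.6, 38.3 and 27.9 at day 2, and 18.0, 22.7 and 58.3 at day 3. Day 3 was 11.4-fold below day 1 with no overlap, and at day 2 mouse A was still at the level of day 1 while mice B and C were near that of day 3 (-3.51 ± 0.63, adjusted p = 0.00062). Ly6d, a surface protein of luminal cells, was 193.6, 576.9 and 401.9 at day 1, 95.2, 120.5 and 141.2 at day 2, and 51.1, 49.0 and 52.7 at day 3. It fell without overlap at each step, 6.98-fold in all (-2.80 ± 0.54, adjusted p = 0.0014). Btn1a1, butyrophilin, which coats the milk fat globule, was 145.3, 124.2 and 188.0 at day 1, 79.4, 29.1 and 34.2 at day 2, and 33.0, 22.9 and 48.2 at day 3. Both later days lay below day 1 (-2.18 ± 0.37, adjusted p = 0.00037). Against mouse C alone Ly6d and Btn1a1 were called, and Tph1 had an adjusted p of 0.055.

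**Figure D4:**
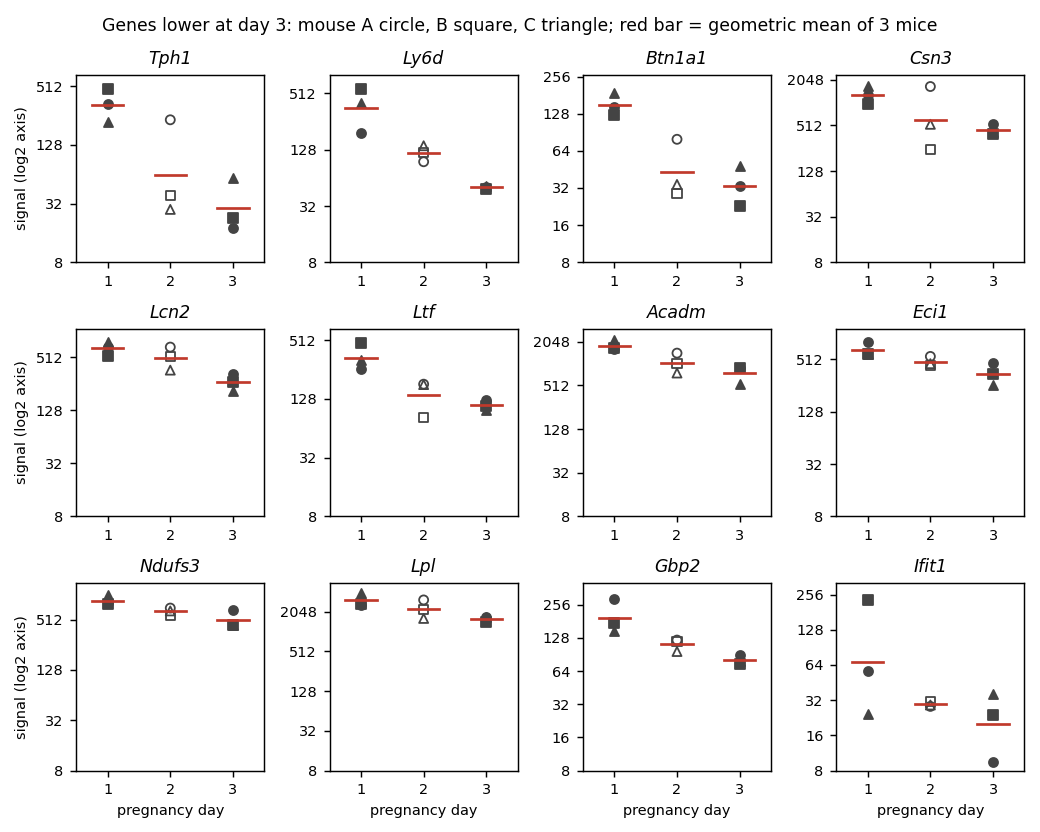
Signals of 12 genes called lower at day 3, on a log2 axis, by pregnancy day; circles, squares and triangles are mice A, B and C, open symbols mark day 2, and the red bar is the geometric mean of 3 mice. Tph1 falls from a mean of 328.2 to 28.8 and Ly6d from 355.4 to 50.9 without overlap, whereas in Ifit1 mouse C of day 1 (24.6) lies among the arrays of day 3.

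Of the other large falls, the 5 given first here held their calls without any 1 mouse, and Cck and Dmbt1 did not. Lalba, also among the 15 largest falls, is given below with the milk proteins and lost its call without any 1 mouse. Klhdc4, Npl and Upk2, also among the 15, are not described here. Tmprss2, a membrane serine protease of epithelium, was 184.0, 59.6 and 382.6 at day 1, 170.0, 99.6 and 72.0 at day 2, and 34.0, 45.9 and 46.8 at day 3 (-1.95 ± 0.38, adjusted p = 0.0014). Apmap, a membrane protein of adipocytes, was 197.6, 119.0 and 175.3, then 96.7, 86.8 and 81.4, then 43.8, 57.2 and 32.8 (-1.88 ± 0.33, adjusted p = 0.0004). Fxyd2, a regulator of the sodium pump, went from a mean of 155.5 to 43.2, S100a1, a calcium-binding protein, from 674.6 to 196.0, and Tlcd4 from 431.7 to 133.4. In all 5 the arrays of days 1 and 3 were separate, as the rule that picked them requires. Cck, cholecystokinin, was 28.6, 23.7 and 66.6 at day 1 and at the floor on all 6 arrays of days 2 and 3, at least 3.79-fold lower at day 3 (adjusted p = 0.0077, and 0.065 without mouse C of day 1). Dmbt1, a secreted defence protein, was 30.3, 139.5 and 42.5 at day 1 and at the floor on every array of day 3, at least 6.0-fold lower (adjusted p = 0.0054, and 0.053 without mouse B of day 1).

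Of 19 milk protein genes 4 were lower (Btn1a1, Lalba, Csn3 and Ltf), 1 was higher (Wfdc18), and the median was -0.07. Against mouse C alone 2 were lower and 2 higher. Csn3, kappa-casein, was 1283.9, 992.5 and 1702.2 at day 1, 1672.0, 245.4 and 530.5 at day 2, and 530.8, 389.2 and 417.8 at day 3 (-1.55 ± 0.42, adjusted p = 0.017). Days 1 and 3 were separate and day 2 spanned both, and the call was lost without mouse A or C of day 1 or mouse B or C of day 3 (adjusted p of up to 0.08). Ltf, lactoferrin, an iron-binding defence protein, was 256.4, 474.6 and 318.9, then 181.1, 82.9 and 179.4, then 124.8, 108.2 and 97.6 (-1.63 ± 0.33, adjusted p = 0.002). Lalba, alpha-lactalbumin, went from 48.2 to 10.1, close to the floor (-2.25 ± 0.72, adjusted p = 0.038), and lost its call without any 1 mouse (up to 0.12). Wfdc18, a secreted protein of the epithelium, was 979.9, 942.0 and 859.8 at day 1, 1958.2, 882.1 and 1522.5 at day 2, and 2357.5, 2239.5 and 2682.9 at day 3 (1.39 ± 0.30, adjusted p = 0.0032). Csn2, beta-casein, had 352.0, 104.2 and 65.4 at day 1 and 82.5, 107.7 and 129.2 at day 3, and Wap 416.3, 218.3 and 9.4 at day 1 and 155.0, 114.4 and 121.8 at day 3. Day 1 spanned day 3 in both, with mouse A highest and mouse C lowest, and neither was called (adjusted p of 0.79 and 0.77), but against mouse C alone, at the floor, Wap was called higher (adjusted p = 0.0074).

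Of 11 markers of hormone-sensing luminal cells 3 were lower (Ly6d, Stc2 and Prom1) and 1 higher (Tnfsf11), with a median of -0.60 (4.02% of all features were lower). Against mouse C alone 4 were lower, 0 higher and the median was -1.40. Stc2, stanniocalcin 2, was 163.8, 216.3 and 341.8 at day 1, 168.9, 215.0 and 201.8 at day 2, and 108.6, 81.4 and 116.2 at day 3 (-1.19 ± 0.33, adjusted p = 0.018, and up to 0.12 without mouse C of day 1 or mouse B of day 3). Of 9 markers of luminal progenitors 3 were lower (Csn3, Lcn2 and Tspan8) and Sox10 was higher, and against mouse C alone 1 was lower and 0 higher. Lcn2, lipocalin 2, which binds bacterial iron carriers, was 672.6, 530.7 and 763.1 at day 1, 666.6, 518.0 and 365.4 at day 2, and 334.4, 265.3 and 213.5 at day 3 (-1.28 ± 0.28, adjusted p = 0.0039), although a dimmer probe set of the gene gave 0.39. Sox10, a factor of neural crest and mammary stem cells, was 199.9, 144.9 and 188.1 at day 1, 259.9, 275.6 and 243.8 at day 2 and 338.3, 367.9 and 286.7 at day 3 (0.90 ± 0.22, adjusted p = 0.0071, and 0.053 without mouse B of day 3).

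Of 18 markers of luminal epithelium 3 were higher (Cldn3, Cldn7 and Ehf) and 2 lower (Prom1 and Wfdc2), with a median of -0.05, and 0 were called against mouse C alone. Wfdc2, a secreted protein of epithelium, went from 262.4 to 97.4 (-1.43 ± 0.46, adjusted p = 0.039), a call lost without any 1 mouse but mouse A of day 3 (up to 0.16). The tight junction genes Cldn3 (228.3 to 485.3, 1.09 ± 0.30, adjusted p = 0.019) and Cldn7 (50.4 to 137.6, 1.45 ± 0.36, adjusted p = 0.01) rose. Cldn3 lost its call without mouse A or B of day 1 or mouse B of day 3, and Cldn7 without mouse A of day 1 or mouse B of day 3, at adjusted p of up to 0.076 and 0.10. Trp63, the p63 factor of basal cells, rose from 57.3 to 110.6 (0.95 ± 0.27, adjusted p = 0.023), a call lost without mouse C of day 1 or mouse B or C of day 3 (up to 0.15). It and Igfbp2, an IGF binding protein (70.9 to 254.7, adjusted p = 0.0087, and 0.053 without mouse B of day 3), were the called members among 14 basal markers, of which 1 was called against mouse C alone. Krt8 and Krt18, given above, had mouse B of day 1 as their highest array (1780.1 and 1611.4).

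Of 16 genes of fatty acid oxidation 6 were lower and 0 higher, with a median of -0.63, and 13 of 16 differences were below 0. Mouse C alone gave 2 lower and a median of -0.72, and leaving out 1 mouse gave 2 (mouse B or C of day 3) to 7 lower. Median scaling made it 8. The Gapdh ratio as a covariate made it 2, with a median of -0.72. Acadm, the medium-chain acyl-CoA dehydrogenase, was 1624.8, 1656.4 and 2196.1 at day 1, 1428.3, 1032.0 and 759.1 at day 2, and 890.7, 880.1 and 535.1 at day 3 (-1.27 ± 0.23, adjusted p = 0.00078). Eci1, an isomerase that prepares unsaturated fatty acids for oxidation, was 813.9, 590.6 and 581.2, then 552.0, 432.2 and 455.8, then 464.5, 346.6 and 260.3 (-0.91 ± 0.17, adjusted p = 0.00068). In both genes days 1 and 3 were separate and no left-out mouse ended the call. Hadhb and Ech1 fell by 0.79 and 0.82 and lost their calls without mouse B or C of day 3 (adjusted p of up to 0.089). Decr1 and Slc25a20, the carnitine carrier, were called in the full set and lost their calls without at least 4 of the 6 mice in turn.

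Of 36 subunits of the respiratory chain 11 were lower and 0 higher, with a median of -0.47, and 32 differences were below 0. With the Gapdh ratio as a covariate 2 were lower, and the median was -0.43. Quantile normalization gave 6 lower and median scaling 25, with mouse C alone 4 were lower, and leaving out 1 mouse gave 2 (mouse B of day 3), 4 (mouse C of day 3), 5 (mouse A or C of day 1), 9 or 16 lower. Ndufs3, of complex I, was 814.3, 789.7 and 997.9 at day 1, 703.0, 574.9 and 650.2 at day 2, and 673.7, 440.6 and 441.2 at day 3 (-0.76 ± 0.16, adjusted p = 0.0025), and its call held without any 1 mouse. Ndufb9, of complex I, and Cox7a2, of complex IV, fell by 0.73 and 0.82 (adjusted p of 0.0036 and 0.0047) and lost their calls without mouse B of day 3 (0.07 and 0.069). Sdhd, of complex II, fell by 0.59 (adjusted p = 0.0082, and 0.068 without mouse C of day 3). In these genes mouse A was the highest array of day 3.

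White adipocyte markers were lower in 3 of 14 and higher in 0, with a median of -0.36; with mouse C alone 1 was lower and the median was -0.49. Lpl, lipoprotein lipase, was 2600.3, 2714.1 and 3978.9 at day 1, 3091.5, 2204.1 and 1621.2 at day 2, and 1689.1, 1410.5 and 1705.9 at day 3 (-0.93 ± 0.20, adjusted p = 0.0036), while a dimmer probe set gave 0.33. Pparg, the master regulator of adipocytes, was 289.5, 216.2 and 247.5, then 253.3, 225.2 and 166.1, then 121.7, 104.1 and 113.6 (-1.14 ± 0.27, adjusted p = 0.0065). Both were separate and held without any 1 mouse. Retn, the adipocyte hormone resistin, fell by 0.96 (adjusted p = 0.022, up to 0.13 without mouse A or C of day 1 or mouse B or C of day 3). Adipoq was 4641.0, 4568.2 and 6584.4 at day 1 and 3641.3, 3081.3 and 3446.9 at day 3, separate but not called (-0.62 ± 0.22, adjusted p = 0.069). Of 16 genes of fatty acid synthesis 3 were lower (Gpam, Thrsp and Lpin1) and 1 higher (Slc25a1), while Fasn, the fatty acid synthase, stood at 4178 and 4489 and Scd1, the desaturase, at 8752 and 8617. Mouse C alone gave 0 calls among the 16. The list means of the white adipocyte markers were 9.44 to 9.68 at day 1 and 9.05 to 9.37 at day 3 on the log2 scale.

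Of 20 interferon response genes 6 were lower and 0 higher, with a median of -0.63 and all 20 differences below 0. With mouse C alone 0 were lower and the median was -0.08, and with the Gapdh ratio as a covariate 0 were lower and it was -0.30. The count was 9 without mouse C of day 1, 1 without mouse A of day 1 and 2 without mouse A of day 3. Gbp2, a guanylate-binding protein induced by interferon gamma, was 286.4, 175.4 and 146.5 at day 1, 122.3, 118.6 and 96.3 at day 2, and 90.0, 74.2 and 78.6 at day 3, with separate days and a call without any 1 mouse (-1.27 ± 0.26, adjusted p = 0.0022). Ifit3, of the antiviral IFIT family, was 78.4, 302.3 and 26.0 at day 1 and 19.8, 31.4 and 28.2 at day 3, and Ifit1 was 56.5, 228.5 and 24.6 at day 1 and 9.4, 24.1 and 36.3 at day 3. In both, mouse B of day 1 was far above the rest and mouse C lay within day 3, so that the groups overlapped. Their adjusted p values of 0.021 and 0.032 rose to as much as 0.27 and 0.31 when a mouse was left out, including mouse A or B of day 1.

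Among lists of cells outside the epithelium and fat, the neutrophil list held the most calls. Of its 6 members Csf3r, the receptor of a neutrophil growth factor, and Mmp9 were higher, Ltf, also a milk protein, was lower, and the median was 0.54, with the same counts against mouse C alone. Csf3r went from 66.9 to 182.0 (1.44 ± 0.45, adjusted p = 0.036) and lost its call without mouse C of day 1 or mouse B or C of day 3, at up to 0.38. The members did not move together: 4 of the 6 differences were above 0 and 2 below. All day 3 arrays lay above all day 1 arrays in 3 members (19.1% of all features) and below them in 2 (11.3%). Elane, another member, was not called (0.75, adjusted p = 0.15, limma). Sox10 was the called member among 7 nerve markers. Among 9 of keratinocytes it was Krt6b, a keratin of epidermis (32.9 to 100.6, adjusted p = 0.02), which was not called without mouse C of day 1 or mouse B or C of day 3 (up to 0.24). Of 13 T and NK cell, 12 B and plasma cell, 15 fibroblast, 14 endothelial, 20 skeletal muscle, 5 red blood cell and 6 mast cell markers 0 were called, with medians of -0.01, 0.35, 0.21, -0.10, 0.30, 0.38 and -0.18. Against mouse C alone the median was -0.74 for the B and plasma cell markers and 0.66 for the mast cell markers. The levels of these lists differed between mice. The list mean of the skeletal muscle genes was 7.29 in mouse A of day 1, 4.93 in mouse B and 5.24 in mouse C, and 4.95, 6.32 and 6.93 at day 3, on the log2 scale. For T and NK cells it was 4.37, 4.96 and 6.09 at day 1 and 4.66, 5.40 and 4.97 at day 3, and with mouse C alone 3 of the 13 markers were lower at day 3. For B and plasma cells it was 4.84, 5.45 and 6.50 at day 1 and 5.52, 6.30 and 5.55 at day 3. The part of these differences in the other results was not tested.

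The day 2 mean lay between those of days 1 and 3 for 406 of the 445 features that rose and for 278 of the 294 that fell. It had covered a median of 49.6% and 48.9% of the log2 difference. These features were picked for a difference between days 1 and 3, which by itself makes a day 2 mean in between likely. No share over all features was taken, so these counts do not show day 2 to be an intermediate state. The direct tests made few calls: 14 of 7311 features for day 2 against day 1 (0.191%, 705 at an unadjusted p under 0.05) and 4 for day 3 against day 2 (0.0547%, 770). The 11 higher at day 2 than at day 1 (0.15%) were Tnfsf11, Rspo1, Gjb2, Stmn1, Ccna2, Aurkb, Hmgb2, Dtl, Bdnf, Defb1 and a probe set without a symbol, and the 3 lower (0.041%) were Btn1a1, Cd164 and Rmdn3. Defb1, an antimicrobial defensin, was highest at day 2, with 22.4, 9.6 and 17.1 at day 1, 61.3, 103.0 and 110.4 at day 2, and 34.8, 26.7 and 26.7 at day 3. Day 2 was separate from both other days (2.52 ± 0.47 over day 1, adjusted p = 0.0042), and day 3 was not called against day 1 (adjusted p = 0.21). Bdnf, a neurotrophin, was 60.9, 24.0 and 70.7, then 197.0, 166.2 and 170.1, then 141.3, 89.4 and 154.9, called at day 2 (adjusted p = 0.0015) and at day 3 (1.41 ± 0.33, adjusted p = 0.0056, and 0.073 without mouse B of day 1). Cd164, a sialomucin, was 1251.2, 1850.0 and 1476.3, then 470.6, 843.5 and 687.1, then 627.0, 502.6 and 709.2, so that its fall was complete at day 2 (-1.22 ± 0.21, adjusted p = 0.0015).

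C1qa and Nsf, a factor of vesicle fusion, were the 2 features higher at day 3 than at day 2 (0.0274%). Nsf was 36.1, 51.5 and 32 at day 1, 12.1, 14.6 and 12.7 at day 2, and 50.1, 62.2 and 62.2 at day 3, so that day 2 was the low point (2.14 ± 0.42 over day 2, adjusted p = 0.031). Gstt2, a glutathione transferase, was 268.1, 160.2 and 224.8, then 260.0, 200.3 and 180.5, then 108.3, 116.7 and 68.3, and fell between days 2 and 3 (-1.15 ± 0.24, adjusted p = 0.041), as did a probe set without a symbol, which makes 2 lower (0.0274%). Days 2 and 1, and days 3 and 2, were compared with the same arrays that enter the comparison of days 3 and 1.

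Set in the whole series, the genes of early pregnancy took different courses, given here as mean levels without a test. Tnfsf11 was at the floor in all 3 virgins of week 12, reached 176.8 at day 2 and 168.7 at day 8.5, and was down to 62.0 at day 14.5 and 35.6 at day 17.5. Rspo1 was also at the floor at virgin week 12 and was 118.9 at day 8.5, 214.8 at day 12.5 and 165.7 at day 17.5. Gjb2, at 57.7 in virgins of week 12, was 509.3 at day 8.5 and 2149 at day 17.5. Stmn1 stood at 132.2 in the virgins, 634.0 at day 8.5 and 925.3 at day 12.5. Sox4, Fzd2 and C1qa had day 3 as their highest mean among virgin week 12 and the pregnancy days: Sox4 was 179.0 in virgins of week 12, 504.1 at day 3 and 132.7 at day 8.5, Fzd2 was 45.3, 136.6 and 49.8, and C1qa was 366.4, 898.9 and 427.0.

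Among genes that fell, several lay higher at day 1 than at both virgin week 12 and day 3. Tph1 had its highest mean of the 18 time points at day 1 (328.2), against 35.1 at virgin week 12, where the mice ran from 9.4 to 103.5, and 50.2 at day 8.5. Btn1a1 was 39.4 at virgin week 12, 150.3 at day 1, 33.2 at day 3, 89.6 at day 8.5 and 1567 at day 17.5, and Csn3 310.0, 1294, 441.9, 1656 and 5914 at the same points. Acadm was 1308 at virgin week 12, 1808 at day 1, 748.6 at day 3 and 1450 at day 8.5. Ly6d did not have this shape: it was 359.7 at virgin week 12, 355.4 at day 1, 50.9 at day 3 and 12.0 at day 8.5.

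**Figure D5:**
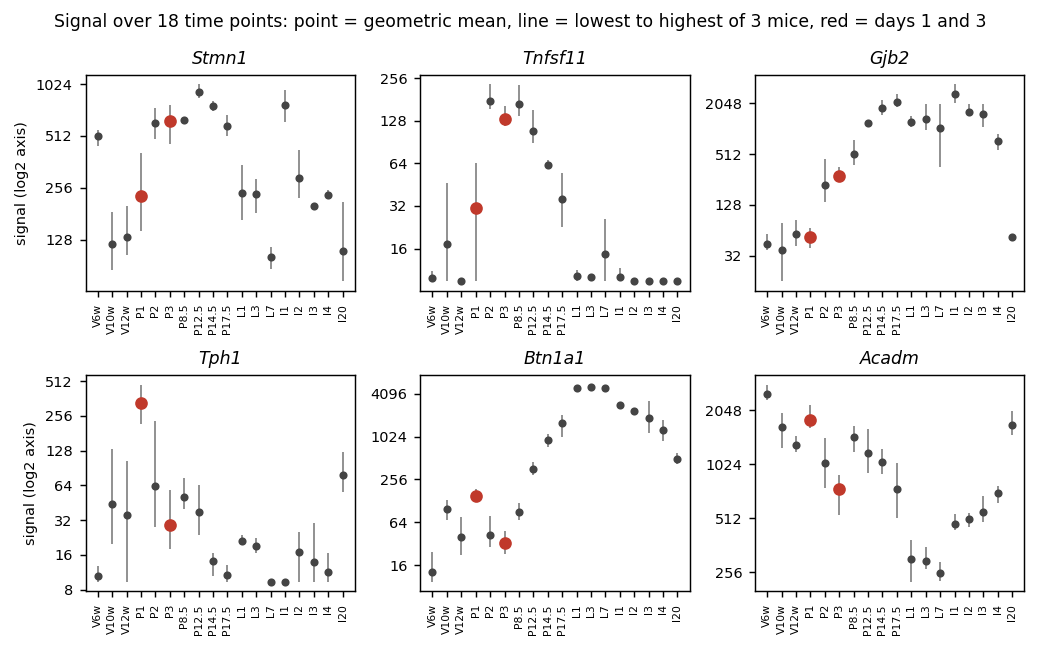
Signals of 6 genes over the 18 time points on a log2 axis, where V is virgin week, P pregnancy day, L lactation day and I involution day; points are geometric means, lines run from the lowest to the highest of 3 mice, and pregnancy days 1 and 3 are red. Tnfsf11 is high from day 2 to day 12.5, Gjb2 goes on rising to 2149 at day 17.5, and Tph1 and Btn1a1 are higher at day 1 (328.2 and 150.3) than at day 3 (28.8 and 33.2).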

How the data were processed

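The series holds 54 single-channel Affymetrix arrays of 12488 probe sets, 1 gland each, from 3 mice at each of 18 time points. The deposited values are signal intensities that the authors computed with MAS5, per the submitters' processing notes, with no version named. The 2% trimmed mean of each array was 100.05 to 100.07, so the deposited arrays share a common scale. Signals under 9.4 (the 25th percentile) were set to 9.4 and taken to log2. After removal of 66 control probe sets, the filter at 22.8 kept 8640 of 12422. Each gene was represented by its brightest probe set (mean log2 signal over the arrays), which gave 7311 features, 6441 of them with exactly 1 symbol. Of 10833 probe sets with 1 symbol, 10817 had their identifier in the RefSeq gene table (GRCm38.p6). All 54 arrays were fitted with limma 3.58.1 in R 4.3.3 (lmFit, 1 mean per time point; eBayes with an intensity trend; degrees of freedom 36 residual and 6.77 prior), and its tests are two-sided. Tables were made in Python 3.11.15 (numpy 2.4.6, pandas 2.3.3) and figures in matplotlib 3.10.9. The fit was tested on simulated data.

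Named genes were the 15 largest rises and 15 largest falls among called genes with 1 symbol and separate arrays, called members of lists with at least 2 called members, up to 3 bright uncalled members of these, and a fixed set. Other genes (Epcam, Egfr, Axin2, Fzd4, Lrp5, Cited1, C1qb, C1qc, Krt6b and the day 2 calls) were named after their values were seen. The text gives a part of them. Members of 51 lists, 33 of pathways and 18 of cell types, were counted with no set test. The comparison and the lists were chosen with earlier results of these data known. Alternatives were no floor or a higher one, no filter, all probe sets, quantile normalization, median scaling, only the arrays compared, no trend, robust eBayes, array weights, the mouse letter as a replicate block, beta-actin ratio or Arl2bp and Glo1 as covariates, and leaving out each mouse. The Gapdh ratio as a covariate, mouse C alone, this with median scaling, and all non-control probe sets were added after the data were seen. The letters do not pair the mice.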

Additional observations from a re-analysis of the deposited data

How the results depend on the processing

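Counts give all calls, then higher and lower, for day 3 against day 1 (739, 445 and 294), then called list members (131). Fitting the 6 arrays alone gave 86, 62 and 24, and 18 list members, and the 9 arrays of days 1 to 3 gave 292, 198 and 94, and 54. Array quality weights gave 1157, 689 and 468. All non-control probe sets, with no filter and no choice of 1 probe set per gene, gave 702, 446 and 256, and 91 list members. Without the filter the counts were 602, 358 and 244, and 93. Median scaling gave 208 higher and 720 lower, and the beta-actin ratio 294 higher. The Gapdh ratio gave 164, 86 and 78, and 33, mouse C alone for day 1 gave 301, 209 and 92, and 53, and this with median scaling gave 350 and 104 higher, and 58. The mouse letter as a replicate block gave 0 calls in the 6 arrays (0 higher, 0 lower, 0 list members; 1743 at an unadjusted p under 0.05, limma) and 777 in all arrays; the same-letter correlations of -0.0562, 0.0531 and -0.0207 do not pair the mice. Leaving out 1 mouse gave 197 to 647 calls, 106 to 358 higher, 91 to 289 lower and 39 to 110 list members.

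Against day 1, day 2 gave 7 calls without a floor, 52 with the higher floor, 23 with median scaling, 25 with all kept probe sets, 0 with 9 arrays (671 at an unadjusted p under 0.05), 23 without a trend, 119 with weights, 41 with the beta-actin ratio, and 4 to 93 without 1 mouse. Day 3 against day 2 gave 30 with the higher floor, 10 with quantile normalization, 8 without a filter, 13 with all kept probe sets, 2 with 9 arrays, 7 without a trend, 68 with weights, 7 with the block in all arrays, 7 with the beta-actin ratio, and 0 to 20 without 1 mouse. The causes were not tested.

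Of 144 named genes called, 5 changed sign, all under median scaling with mouse C alone: Birc5 (-0.023), Kif22 (-0.023), U2af2 (-0.053), Tnc (-0.15) and Slc25a1 (-0.26). Many more of the 144 lost their call. The number that kept it was 22 in the 6 arrays alone, 62 in the 9 arrays and 36 with the Gapdh ratio. It was 54 without mouse B of day 3, 105 with median scaling, 113 with quantile normalization and 141 with array quality weights. With all non-control probe sets 106 kept it, and with no filter 107. With 3 mice a day and many signals near the floor, smaller differences could not be called, and no call says that a gene did not change.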
